A study of Mus musculus with 6 samples.

Results

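The sarcomere is the contractile unit of heart muscle, and the 38 genes described here encode its thick and thin filaments, titin, the M-band, the Z-disc with the filaments attached to it, and 3 muscle ubiquitin ligases. They were chosen by gene symbol for these structures, with no rule on measured values, although earlier results of these data were known. Each symbol was found once among the 55359 genes of the deposited table, and 37 of the 38 had enough counts to be tested. Mouse hearts of the inbred strain C57BL/6 were sequenced as 6 libraries of total RNA. The animals had received, through the tail vein, adeno-associated virus AAV9 carrying either a negative control (NC) short hairpin RNA or one against YTHDF2, a protein that binds N6-methyladenosine in RNA, and 3 libraries carry each label (shNC 1 to 3 and shYthdf2 1 to 3). The construct held GFP and the cTNT promoter, a promoter of cardiac muscle cells, and whole hearts hold other cells as well. Every library came from a heart that underwent 45 min of ischemia and 24 h of reperfusion, with surgery 4 weeks after the virus, so no library shows an uninjured heart. Neither the age nor the sex of the mice is stated.

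In the sarcomere, thick filaments of myosin pull on thin filaments of actin when calcium binds to troponin C and tropomyosin moves off the myosin-binding sites. Thin filaments are anchored in the Z-disc, where alpha-actinin cross-links them, and titin spans from the Z-disc to the M-band as a molecular spring. Several of these proteins exist as fetal or atrial forms and as adult ventricular forms, and the balance between the forms shifts in a stressed ventricle. The ligases MuRF1 and atrogin-1 mark muscle proteins for the proteasome, which degrades them.

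The libraries held 67023813 to 77561552 counts. The targeted transcript, Ythdf2, was not depleted under the shYthdf2 label, with 20.7, 24.3 and 27.0 CPM (counts scaled to a common library size) across shNC 1 to 3 against 25.1, 25.6 and 32.7 CPM across shYthdf2 1 to 3, so every direction given here is between labels. Mitochondrially encoded genes took 20.5% to 25.5% of the counts in shNC and 26.0% to 27.3% in shYthdf2. The pair shYthdf2 1 and 2 was the closest of all pairs, with a chi-square per degree of freedom of 39.5 against 119.7 to 572 for the others, which is above sampling noise, and both were kept. The library shNC 3 stood apart from the other controls, with correlations of log2 CPM of 0.91 to both where shNC 1 and 2 had 0.95 with each other. It was closer to every shYthdf2 library, with correlations of 0.93 to 0.94. Its chi-square per degree of freedom was 222 to 284 with those libraries and 496 and 572 with shNC 1 and 2. Results that rest on shNC 3 are given with and without it. The labels do not say whether libraries of one group are separate animals, so a p-value here speaks only to the spread among these samples, and that spread may be technical. All 20 cardiomyocyte markers outside the sarcomere were tested, with a summed level of 6794 to 22393 CPM. The 12 atrial markers summed to 372 to 3933 CPM, of which Nppa, which stressed ventricles express too, made up 191 to 3704 CPM. Among the other atrial markers, Kcna5 had 24.9 to 50.8 CPM and Stard10 9.75 to 27.6 CPM. Bmp10 had at most 0.0540 CPM, and Sln had 0 counts in every library. The 13 skeletal muscle markers summed to 996 to 1899 CPM, and among them Myh1 and Myh4, of fast fibres, had at most 0.105 CPM. Pvalb, Actn3 and Tnnc2 had at most 0.531 CPM and Tnni2 at most 2.34 CPM. Others were present: Acta1 had 213 to 700 CPM, and Tnnt3 and Myoz1 reached 16.9 and 7.27 CPM, both in shNC 3. The larger part of the skeletal muscle sum lay in Ckm, Atp2a1, Mylpf and Myh2, whose single levels are not given here.

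Upstream sequences are shown for 3 members on which the description turns: Ttn, which had the highest fold change, Tnnc1, a thin filament gene whose shYthdf2 libraries all lay below the controls, and Flnc, the gene most raised in shNC 3. Each is the 250 bases before the annotated start site in RefSeq on GRCm38.p6, written 5′ to 3′ on the strand of the gene. For Ttn (chr2:76982548-76982797, minus strand) the capitals mark a match to the MEF2 site, the binding motif of the muscle factor MEF2, at position -166. For Tnnc1 (chr14:31208062-31208311, plus strand) they mark GGAATG at position -58, the reverse complement of the M-CAT element CATTCC, which TEAD factors bind. For Flnc (chr6:29433006-29433255, plus strand; 1 of 2 annotated start windows of the gene) they mark CATTCC at position -104.
Ttn: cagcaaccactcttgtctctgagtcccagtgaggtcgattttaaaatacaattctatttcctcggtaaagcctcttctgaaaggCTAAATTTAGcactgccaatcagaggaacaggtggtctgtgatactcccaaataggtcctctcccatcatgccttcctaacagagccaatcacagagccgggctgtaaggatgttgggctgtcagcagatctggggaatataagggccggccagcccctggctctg
Tnnc1: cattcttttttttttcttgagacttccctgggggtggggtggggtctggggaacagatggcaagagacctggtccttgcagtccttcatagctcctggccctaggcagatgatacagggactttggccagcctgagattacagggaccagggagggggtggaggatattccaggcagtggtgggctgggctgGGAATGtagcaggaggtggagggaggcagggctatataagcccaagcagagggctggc
Flnc: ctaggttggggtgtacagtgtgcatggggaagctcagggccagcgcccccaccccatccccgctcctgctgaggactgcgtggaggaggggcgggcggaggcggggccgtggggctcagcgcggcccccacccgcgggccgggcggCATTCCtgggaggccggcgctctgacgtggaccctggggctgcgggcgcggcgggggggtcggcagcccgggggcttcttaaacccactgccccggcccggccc

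Promoter windows of this table were found for 33 of the 38 members. M-CAT, searched as CATTCC on both strands, was present in 13 of the 45 windows that these members have, and in 12.6% of all 32851 mouse windows. The TATA motif TATAAA was in 4 of the 45 and in 12.4% of all windows. The CArG box, bound by serum response factor, was present in 7 of the 45 (of Actc1, Ldb3, Myl3, Myl7, Myom1 and Nebl) and in 1.47% of all windows. The MEF2 site was in 5 of the 45 (of Mybpc3, Myoz2, Synpo2l and Ttn) and in 2.92%. The motifs can overlap each other, a match is a string of letters and not a binding site, and no test was made of these shares. Of the 4 members with a MEF2 match, Ttn and Synpo2l had fold changes above 0 and Mybpc3 and Myoz2 below 0.

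Sarcomere transcripts were abundant in every library. They took 6.27% ± 0.903 (SD, n = 3) of all counts in shNC, from 5.72% to 7.31%, and 4.89% ± 0.442 (SD, n = 3) in shYthdf2, from 4.56% to 5.39%. The ranges do not meet. As a share of the counts outside the mitochondrial chromosome they do, at 7.26% to 9.58% in shNC and 6.18% to 7.41% in shYthdf2. FPKM is a fragment count scaled to depth and to a length used for each gene. In mean FPKM over the 6 libraries, the order began with Tnnc1 at 2130.3, Actc1 at 1968 and Myl2 at 1854 FPKM. Then came Myl3, Myh6, Tcap and Tnni3, all over 1000 FPKM. Ttn had 8.68 FPKM, since its counts are divided by a length of 129 kb implied by the table. The sources do not say which exons such a length covers, so it need not be that of the mRNA present. Myl4, Myl7, Neb and Tnni1 were under 1 FPKM. Myl4 and Myl7 encode atrial light chains, Neb the nebulin of skeletal muscle and Tnni1 a fetal troponin.

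No member passed the test. In edgeR's quasi-likelihood test over 20489 genes, 0 of the 37 tested members reached an adjusted p under 0.05, where the background was 0.00976% of all genes, and their adjusted p ran from 0.976 to 0.999. DESeq2 and limma also called 0 members. DESeq2 gave Flnc no p-value, so it could not be called there, and gave Ttn an adjusted p of 0.0501. At an unadjusted p under 0.05 there were 4 members in edgeR against a background of 3.65%, and 5 in DESeq2 against one of 5.58%. The 4 were Pdlim5 and Ttn on the higher side, where the background was 1.88%, and Tcap and Tnnc1 on the lower, where it was 1.77%. The groups did not overlap for 5 members, where 9.51% of all genes separate in this way. These were Pdlim5 and Ttn, higher (background 4.95%), and Myom1, Tnnc1 and Tpm1, lower (background 4.55%). Without shYthdf2 3 there were 9 such members, beside 19.5% of all genes. By sign alone 29 of 37 members were lower in shYthdf2 and 8 higher, beside 51.4% lower among all genes, and the median log2 fold change (shYthdf2 minus shNC) was -0.21 for the members and -0.01 for all genes. Leaving out shNC 2 gave a members' median of -0.11 beside -0.02 for all genes. It was -0.32 beside 0.02 with shNC 3 left out, and -0.33 beside -0.03 with shYthdf2 3 left out. In bulk RNA, fewer cardiomyocytes and less RNA per cardiomyocyte cannot be told apart. Cardiomyocyte markers outside the sarcomere had the same sign, with 15 of 20 lower, a median of -0.34 and 0 past the test. Their summed level was 15963, 22393 and 6794 CPM across shNC 1 to 3 against 13460.1, 13349 and 13264 CPM across shYthdf2 1 to 3, and their part in the members' values was not tested.

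**Figure D1:**
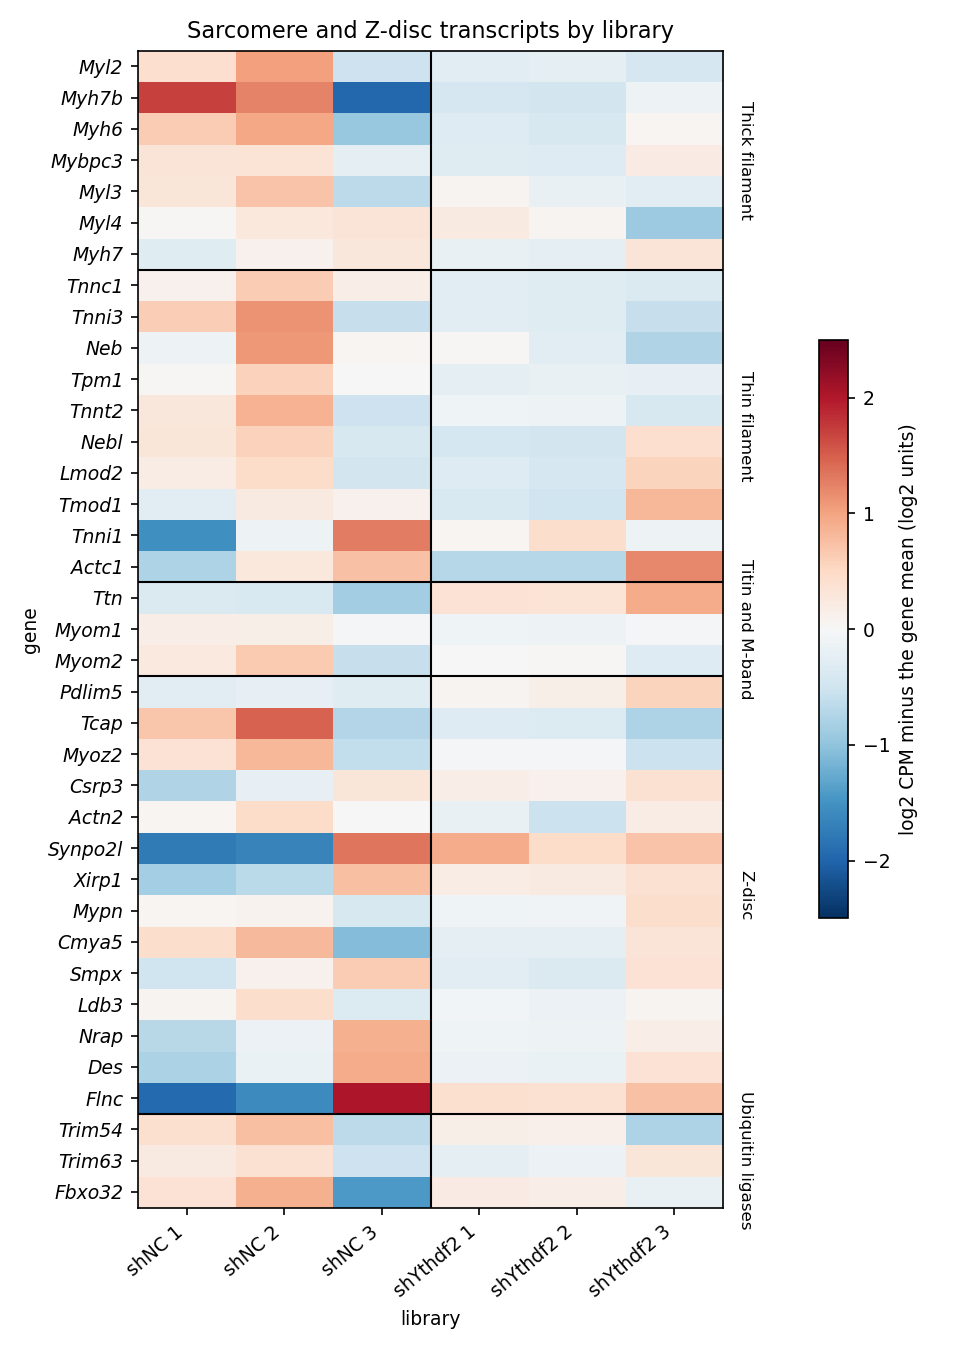
Each row is 1 of the 37 tested members, grouped by role, and each column a library; colour gives log2 CPM minus the mean of the gene over the 6 libraries. The columns of shNC 1 and 2 differ from that of shNC 3 in many rows of the thick filament and the Z-disc, and shYthdf2 1 and 2 look alike.

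The controls differed widely from each other. The library shNC 2 was the highest of the 6 for 19 of 37 members (51.4%, beside 20.9% of all genes), and shNC 3 was the lowest for 16 (43.2%, beside 23.3%). Against the mean of shNC 1 and 2, shNC 3 was at least 2-fold lower for 12 members (32.4%, beside 15.8% of all genes) and at least 2-fold higher for 6 (16.2%, beside 17.9%). The 12 were Cmya5, Fbxo32, Myh6, Myh7b, Myl2, Myl3, Myom2, Myoz2, Tcap, Tnni3, Tnnt2 and Trim54, and the 6 were Des, Flnc, Nrap, Synpo2l, Tnni1 and Xirp1. The raised genes thus include 5 of the Z-disc and attached filaments, and Tnni1, whose levels were under 1 CPM. Macrophage markers summed to 329, 312 and 874 CPM across shNC 1 to 3 and to 498 to 552 CPM under the shYthdf2 label. Erythroid markers summed to 2103, 3701 and 480 CPM across the controls and to 615 to 643 CPM in the other group. At an unadjusted p under 0.05 in edgeR were 6 of 7, all lower, beside 1.77% of all genes lower. Fibroblast markers summed to 913, 760.1 and 1389 CPM across the controls against 820.0, 838 and 1576 CPM, and neutrophil markers to 128, 193 and 375 CPM against 489, 482 and 121 CPM. Smooth muscle and pericyte markers, 4 of 7 at an unadjusted p under 0.05 beside 3.65% of all genes, summed to 921, 896 and 496 CPM against 1044, 1041 and 792 CPM. Endothelial markers summed to 1581, 1233 and 902 CPM against 1278, 1308 and 1188 CPM. That unadjusted p was also reached by 2 of 9 tested atrial and 1 of 10 tested skeletal muscle markers. No marker of any list passed the adjusted threshold. The library shNC 3 lay near the shYthdf2 libraries for erythroid markers, and was the lowest of the 6 for erythroid, smooth muscle and endothelial markers and the highest for macrophage markers. The part of other cell types in the difference of shNC 3 was not tested.

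The thick filament genes were lower by sign in all 7 tested members (median log2 fold change -0.34), and none passed the test. Myh6, the myosin heavy chain of the adult mouse ventricle, had 13839.8, 17236 and 4586 CPM across shNC 1 to 3 against 7087, 6748 and 9211 CPM across shYthdf2 1 to 3. The library shNC 3 was the lowest of the 6 and shNC 1 and 2 the highest, so the groups overlap. The log2 fold change of Myh6 was -0.63 ± 0.48 (SE), with a 95% interval from -1.76 to 0.51. Myl2, the ventricular regulatory light chain, had 5103, 7786 and 2651 CPM across the controls against 3140.4, 3195 and 2858 CPM across the shYthdf2 libraries. Again shNC 3 lay under all shYthdf2 libraries and the log2 fold change was -0.76 ± 0.40 (SE). Myl3, the ventricular essential light chain, had 4304, 5724 and 2227 CPM across the controls against 3682, 3075 and 2911 CPM across the shYthdf2 libraries, with the same low control and a log2 fold change of -0.34 ± 0.37 (SE). Mybpc3, cardiac myosin-binding protein C, which regulates cross-bridges, had 1723, 1749 and 1174 CPM across the controls against 1129, 1115 and 1589.9 CPM across the shYthdf2 libraries. The ranges overlap, with shYthdf2 3 apart from the other 2, and the log2 fold change was -0.28 ± 0.27 (SE). These values also rest on the high library shNC 2. Without it the log2 fold changes were -0.26 for Myh6, -0.34 for Myl2, -0.017 for Myl3 and -0.18 for Mybpc3. Without shNC 3 they were -1.01, -1.07, -0.63 and -0.44 in the same order, and none of these genes passed the test.

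The other heavy chains were Myh7 and Myh7b. Myh7, the slow myosin of the fetal mouse ventricle, had 798, 1054 and 1187 CPM across the controls against 860.3, 834 and 1226 CPM across the shYthdf2 libraries. The highest values of the labels, in shNC 3 and shYthdf2 3, were close to each other. Its log2 fold change was -0.057 ± 0.27 (SE). Myh7b, a related myosin gene that hosts a microRNA (ENSMUSG00000074652, chromosome 2, 155453132 to 155476227 on the plus strand in the coordinates of the table), had 120.2, 87.2 and 9.42 CPM across the controls against 27.5, 26.7 and 33.7 CPM across the shYthdf2 libraries. Here shNC 3 was 11.0-fold under the mean of the other controls and under every shYthdf2 library. With all 6 libraries the log2 fold change of Myh7b was -1.30 ± 0.74 (SE), and without shNC 1 it was -0.72. The gene overlaps Trpc4ap, which holds 157% of its counts, and nothing states that strand was used in counting, so its value is uncertain. Reads of the near-identical coding parts of Myh6 and Myh7 may also have been split between them. The atrial light chains were at the bottom of the range. Myl4 had 2.55, 3.01 and 3.15 CPM across the controls against 2.94, 2.64 and 1.33 CPM across the shYthdf2 libraries (log2 fold change -0.34 ± 0.37 (SE)), and Myl7 had 0, 0 and 4 counts in shNC and 0, 20 and 23 counts in shYthdf2, too few to be tested.

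The thin filament genes had a median log2 fold change of -0.37, with 8 of 10 members lower by sign and 0 past the test. Tnnc1, cardiac troponin C, which binds the calcium that starts contraction (ENSMUSG00000091898, chromosome 14, 30930269 to 30933686 on the plus strand), had 2604, 3754 and 2712 CPM across the controls against 1988, 1959.8 and 1886 CPM across the shYthdf2 libraries. All shYthdf2 libraries lay under all controls, within a narrow range, and shNC 3 lay close to shNC 1. The means were 3023 ± 635 CPM (SD, n = 3) in shNC and 1945 ± 52.5 CPM (SD, n = 3) in shYthdf2, which is a log2 fold change of -0.64 ± 0.25 (SE) (95% interval from -1.22 to -0.0548). This log2 fold change was -0.45 without shNC 2, the highest control, and -0.70 without shNC 3. The exact two-sided permutation test of the 6 CPM values gave p = 0.1, the smallest that 3 against 3 allows. Tpm1, alpha-tropomyosin, which covers the myosin-binding sites, had 6219, 9045 and 6164 CPM across the controls against 5181, 5358 and 5269.9 CPM across the shYthdf2 libraries. Its groups were also separated, shNC 2 being far above the other controls, and its log2 fold change was -0.44 ± 0.27 (SE) (95% interval from -1.07 to 0.20), or -0.23 without shNC 2.

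For the other troponin genes the groups overlap. Tnni3, the inhibitory subunit of the adult heart, had 3390.4, 4877 and 1492 CPM across the controls against 1827, 1806 and 1498 CPM across the shYthdf2 libraries, and its log2 fold change was -0.93 ± 0.42 (SE). Tnnt2, which ties troponin to tropomyosin, had 7036, 10609 and 4053 CPM across the controls against 5345, 5319.7 and 4373 CPM across the shYthdf2 libraries, and its log2 fold change was -0.53 ± 0.38 (SE). In both, shNC 3 was the lowest library and shNC 1 and 2 were above every shYthdf2 library. Without shNC 2, the highest, their log2 fold changes were -0.51 and -0.14. Without shNC 3 they were -1.27 and -0.81. Tnni1, the slow skeletal and fetal inhibitory subunit, was near the limit of the depth, at 0.135, 0.354 and 0.948 CPM across the controls against 0.402, 0.530 and 0.355 CPM across the shYthdf2 libraries (log2 fold change -0.16 ± 0.77 (SE)). Actc1, cardiac alpha-actin and the main actin of the thin filament, had 1783, 3618 and 5012 CPM across the controls against 1853, 1853 and 6944 CPM across the shYthdf2 libraries. Both groups were wide. The log2 fold change was 0.032 ± 0.62 (SE), and it was -0.90 without shYthdf2 3 and -0.28 without shNC 1.

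Neb, the nebulin gene, whose product is a ruler of thin filaments in skeletal muscle, had 3.05, 7.13 and 3.45 CPM across the controls against 3.41, 2.75 and 1.97 CPM across the shYthdf2 libraries, with shNC 2 highest and a log2 fold change of -0.74 ± 0.42 (SE), or -0.26 without shNC 2. Nebl encodes nebulette, the smaller cardiac relative of nebulin at the Z-disc, and had a log2 fold change of -0.30 ± 0.34 (SE). At the pointed end of the filament, Lmod2, which lengthens it, and Tmod1, which caps it, had log2 fold changes of -0.11 ± 0.35 (SE) and 0.094 ± 0.38 (SE). For Tmod1, an overlapping gene, Tstd2, holds 18.1% as many counts.

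Ttn had the opposite sign to most other filament genes. The titin gene (ENSMUSG00000051747, chromosome 2, 76534324 to 76812891 on the minus strand) stood at 811, 798 and 568 CPM across the controls against 1329.8, 1321 and 1983 CPM across the shYthdf2 libraries. Every shYthdf2 library was above every control, with the lowest value in shNC 3 and the highest in shYthdf2 3. The means were 726 ± 137 CPM (SD, n = 3) in shNC and 1545 ± 379.9 CPM (SD, n = 3) in shYthdf2, the log2 fold change was 1.09 ± 0.28 (SE) and its 95% interval ran from 0.44 to 1.74, the highest fold change of the 37 members. The permutation test of Ttn gave the smallest exact p possible, 0.1, and the adjusted p of edgeR was 0.976. Over all alternatives its log2 fold change stayed between 0.87 and 1.21 and its adjusted p between 0.0501 and 1.00, so that it passed under none. The myomesins, which cross-link thick filaments at the M-band where titin ends, were on the other side of 0. Myom1 had 1043, 1036 and 901 CPM across the controls against 868, 851 and 900.3 CPM across the shYthdf2 libraries. Its groups were separated by less than 1 CPM, between shNC 3 and shYthdf2 3, at a log2 fold change of -0.19 ± 0.20 (SE). Myom2 had 705, 938 and 398 CPM across the controls against 595, 607 and 478 CPM across the shYthdf2 libraries, with shNC 3 lowest and a log2 fold change of -0.28 ± 0.33 (SE).

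**Figure D2:**
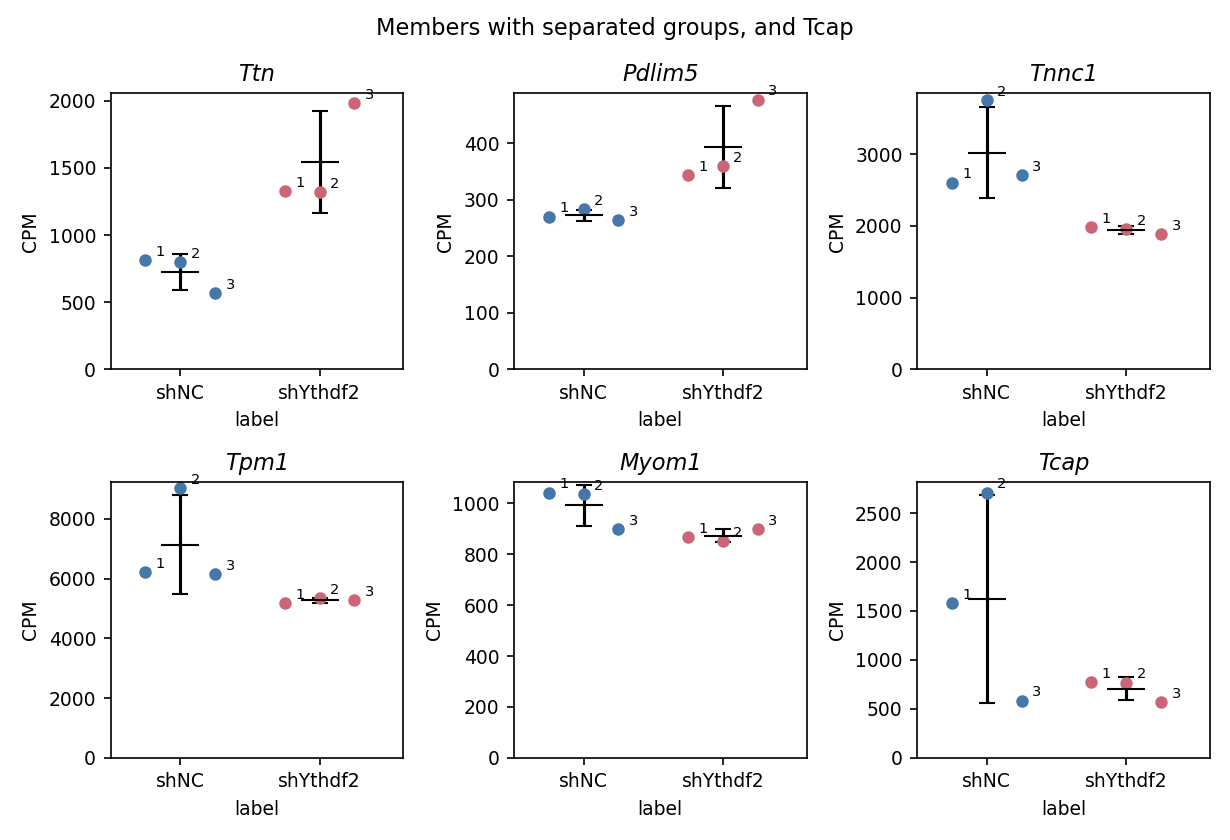
CPM of the 5 members whose groups do not overlap and of Tcap, by label; points are single libraries numbered by replicate, and bars are the mean with its SD (n = 3). Ttn and Pdlim5 are higher in every shYthdf2 library, Tnnc1, Tpm1 and Myom1 lower, and for Tcap shNC 3 lies among the shYthdf2 libraries.

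The members run from 0.675 to 129 kb in the length implied by the table, and fold changes were set against this length. It need not be the length of the mRNA present. Across the 37 tested members the log2 fold change had a Pearson r of 0.39 and a Spearman rho of 0.18 with the log2 of the length. Without Ttn these were 0.16 and 0.11, and over all 20489 genes they were 0.07 and 0.11. These are descriptions across genes of the same libraries, which are not independent. With genes cut into 5 classes of length, the median of all genes ran from -0.14 in the shortest to 0.03 in the longest. The members' median was -0.64 for the 3 in the shortest class and -0.28 for the 13 in the longest. With a correction for length the log2 fold change of Ttn was 1.21. The other members over 13 kb, Neb, Nebl and Cmya5, had log2 fold changes of -0.74, -0.30 and -0.30. RNA quality was measured in none of the files used, and its part was not tested.

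The Z-disc and its attached filaments had both signs, with 5 of 14 members higher and 9 lower, a median log2 fold change of -0.13 and 0 past the test. Pdlim5, an adaptor with PDZ and LIM domains that binds alpha-actinin (ENSMUSG00000028273, chromosome 3, 141945351 to 142101454 on the minus strand), stood at 270.5, 283 and 264 CPM across the controls against 344, 359.9 and 478 CPM across the shYthdf2 libraries. The controls were close together and all below the shYthdf2 libraries. The log2 fold change of Pdlim5 was 0.53 ± 0.21 (SE) (95% interval from 0.0404 to 1.02), and the exact permutation p was 0.1. Tcap, telethonin, which binds the titin N-terminus in the Z-disc (chromosome 11, 98274637 to 98275779 on the plus strand), had 1578, 2709.8 and 586 CPM across the controls against 778, 769 and 571 CPM across the shYthdf2 libraries. The low value of shNC 3 lay among the shYthdf2 libraries, so the groups overlap although the log2 fold change, -1.20 ± 0.51 (SE), was the lowest of all members but for Myh7b. Without shNC 2 it was -0.61, and without shNC 3 it was -1.60. The permutation test of Tcap gave an exact p of 0.3.

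For the main structural genes of the Z-disc the 95% intervals included 0. Actn2, alpha-actinin, had 1241, 1642 and 1190.4 CPM across the controls against 1055, 825 and 1364 CPM across the shYthdf2 libraries, and its log2 fold change was -0.33 ± 0.27 (SE). Des, desmin, the intermediate filament that links Z-discs, had 1872, 2874 and 6163 CPM across the controls against 2909, 2869 and 4173 CPM across the shYthdf2 libraries. The spread of the controls contained all shYthdf2 libraries, and the log2 fold change was -0.13 ± 0.45 (SE). Csrp3, the muscle LIM protein, had 873, 1279 and 1833 CPM across the controls against 1656, 1603 and 1926 CPM across the shYthdf2 libraries, at a log2 fold change of 0.38 ± 0.31 (SE). Its lowest libraries were shNC 1 and 2. Myoz2, which binds calcineurin to alpha-actinin, had 641, 885 and 323 CPM across the controls against 485, 489 and 342 CPM across the shYthdf2 libraries, and its log2 fold change was -0.49 ± 0.38 (SE). Without shNC 2 the log2 fold changes were -0.16 for Actn2 and -0.13 for Myoz2. Without shNC 3 they were -0.41 for Actn2, -0.79 for Myoz2, 0.49 for Des and 0.69 for Csrp3. Ldb3, whose product stabilises the Z-disc, Mypn, which binds nebulin and alpha-actinin, Cmya5, also called myospryn, and Smpx, a small muscle protein, had log2 fold changes of -0.14, 0.18, -0.30 and -0.21.

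Flnc, Synpo2l, Xirp1 and Nrap, actin-binding or intercalated disc genes, were low in shNC 1 and 2 and high in shNC 3. They were named here after their values were seen. Des and Tnni1, described above, were also at least 2-fold higher in shNC 3 than the mean of shNC 1 and 2. Together these 6 genes are 16.2% of the tested members, beside 17.9% of all genes. Flnc, filamin C, which cross-links actin at the Z-disc and is drawn to damaged sarcomeres (ENSMUSG00000068699, chromosome 6, 29433255 to 29461882 on the plus strand), had 231, 295 and 3622 CPM across the controls against 1188, 1172 and 1495 CPM across the shYthdf2 libraries. The value of shNC 3 was 13.8-fold above the mean of shNC 1 and 2 and above every shYthdf2 library. Synpo2l, an actin-binding Z-disc protein, had 88.2, 94.2 and 751 CPM across the controls against 569, 409 and 491 CPM across the shYthdf2 libraries. The gap within its controls was 8.23-fold. Xirp1, a Xin repeat protein of the intercalated disc, had 155, 175 and 469.6 CPM across the controls against 319, 327 and 364 CPM across the shYthdf2 libraries. Nrap, an anchor of actin filaments in growing myofibrils, had 434, 632 and 1304 CPM across the controls against 655, 645 and 792 CPM across the shYthdf2 libraries. In these 4 genes shNC 3 was the highest of the 6 libraries. With all 6 libraries their log2 fold changes were -0.11 ± 0.97 (SE), 0.65 ± 0.80 (SE), 0.34 ± 0.43 (SE) and -0.18 ± 0.40 (SE).

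**Figure D3:**
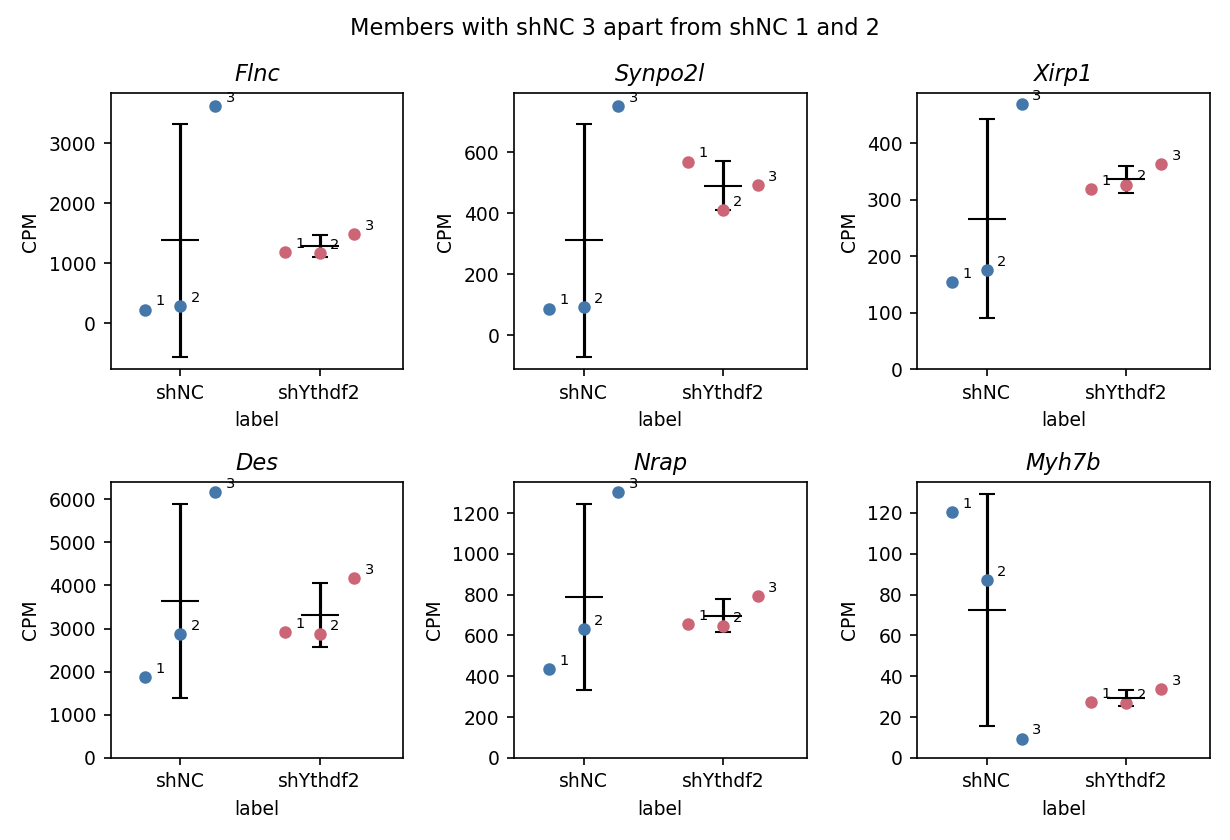
CPM of 6 members for which shNC 3 differs at least 2-fold from the mean of shNC 1 and 2, by label; points are libraries numbered by replicate, bars the mean with its SD (n = 3). For Flnc, Synpo2l, Xirp1, Des and Nrap shNC 3 is the highest library, and for Myh7b the lowest.

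Leaving out shNC 3 changed which members pass. Of 21245 genes then tested 0.993% passed, and of the 38 members 4 did: Flnc, Synpo2l and Xirp1 were higher (background 0.645%) and Myh7b was lower (background 0.348%) in shYthdf2. The log2 fold change of Flnc was then 2.29 with an edgeR adjusted p of 0.0223, over all alternatives 0.0223 to 1.00. Synpo2l had 2.43 with an adjusted p of 0.0172, over all alternatives 0.0172 to 1.00, and Xirp1 1.03 with an adjusted p of 0.0460, over all alternatives 0.0460 to 1.00. Myh7b had -1.82 with an adjusted p of 0.0331, over all alternatives 0.0331 to 1.00. Without shNC 3 the groups did not overlap for 26 members, beside 39.6% of all genes with 2 libraries against 3. Of these 9 were higher (background 20.1%) and 17 lower (background 19.5%). An unadjusted p under 0.05 was reached by 19 of 38, beside 19.6%, with 6 higher (background 10.2%) and 13 lower (background 9.34%). By sign 23 of 38 were lower, beside 48.5%. The median log2 fold change of the Z-disc genes was then 0.25, with 9 of 14 higher by sign. Both controls left for these values, shNC 1 and 2, are alike in the genes named, and the labels give no reason to prefer them to shNC 3.

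**Figure D4:**
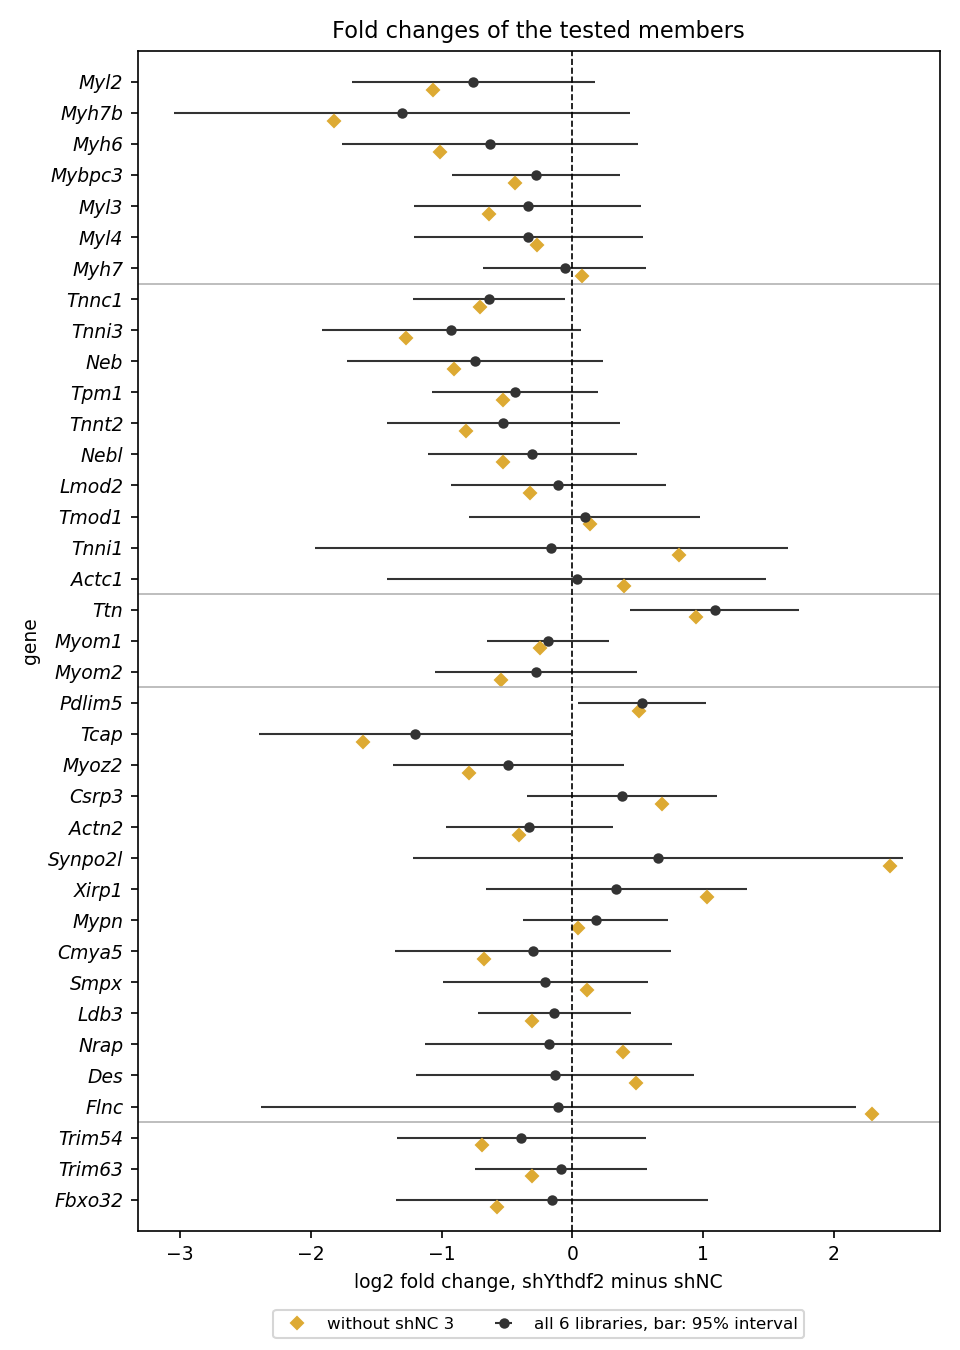
Log2 fold change (shYthdf2 minus shNC) of the 37 tested members by role; circles use all 6 libraries with the 95% interval as a bar, and diamonds leave out shNC 3. Bars clear of 0 belong to Ttn, Pdlim5, Tnnc1 and Tcap, and the diamonds of Flnc and Synpo2l lie over 2 log2 units.

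The 3 ubiquitin ligases were lower by sign, with a median log2 fold change of -0.16 and 0 past the test. Trim63, MuRF1, had 73.9, 82.6 and 44.1 CPM across the controls against 53.6, 57.3 and 78.0 CPM across the shYthdf2 libraries. Its groups overlap fully and the log2 fold change was -0.087 ± 0.28 (SE). Fbxo32, atrogin-1, had 70.4, 101 and 20.1 CPM across the controls against 62.8, 61.6 and 47.8 CPM across the shYthdf2 libraries. The library shNC 3 was again the lowest, at a fold of 4.28 under the mean of the other controls, and the log2 fold change was -0.16 ± 0.51 (SE). Trim54, MuRF3, which binds microtubules and the Z-disc, had 486, 614 and 233 CPM across the controls against 404, 398 and 215 CPM across the shYthdf2 libraries, with shYthdf2 3 lowest and a log2 fold change of -0.39 ± 0.41 (SE), or -0.083 without shNC 2.

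Ratios between paralogs within a library compare fetal or atrial forms with adult ventricular ones. Myh7 made up 4.30%, 4.55% and 16.8% of the summed FPKM of Myh6 and Myh7 across shNC 1 to 3, against 8.66%, 8.79% and 9.41% across shYthdf2 1 to 3. The shYthdf2 libraries were close together and lay between shNC 3 and the other controls. The size of these shares depends on the implied lengths, 9.46 kb for Myh7 and 7.53 kb for Myh6. The log2 ratio of Myh7 to Myh6 was -3.72 ± 1.23 (SD, n = 3) in shNC and -3.35 ± 0.0704 (SD, n = 3) in shYthdf2, a difference of 0.38 that is less than the spread of the controls, and of 1.09 without shNC 3. For Tnni1 over Tnni3 the log2 ratio was -15.50, -14.61 and -11.45 across the controls against -12.99, -12.59 and -12.90 in the other group. The pattern was that of the myosins, with shNC 3 highest and shNC 1 and 2 lowest, although Tnni1 itself had few counts. For Myl4 over Myl3 it was -11.92, -12.09 and -10.66 across the controls against -11.48, -11.39 and -12.30 in the other group, a difference of -0.17 that turned to 0.28 without shNC 3 and to 0.12 without shYthdf2 3. Myl7 had 0 counts in 3 libraries and gave no ratio to Myl2. Nppa, the atrial natriuretic peptide gene, which is no sarcomere gene but is induced in stressed ventricles, had 191, 503 and 3704 CPM across the controls against 1363, 1351 and 2593 CPM across the shYthdf2 libraries, also highest in shNC 3.

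**Figure D5:**
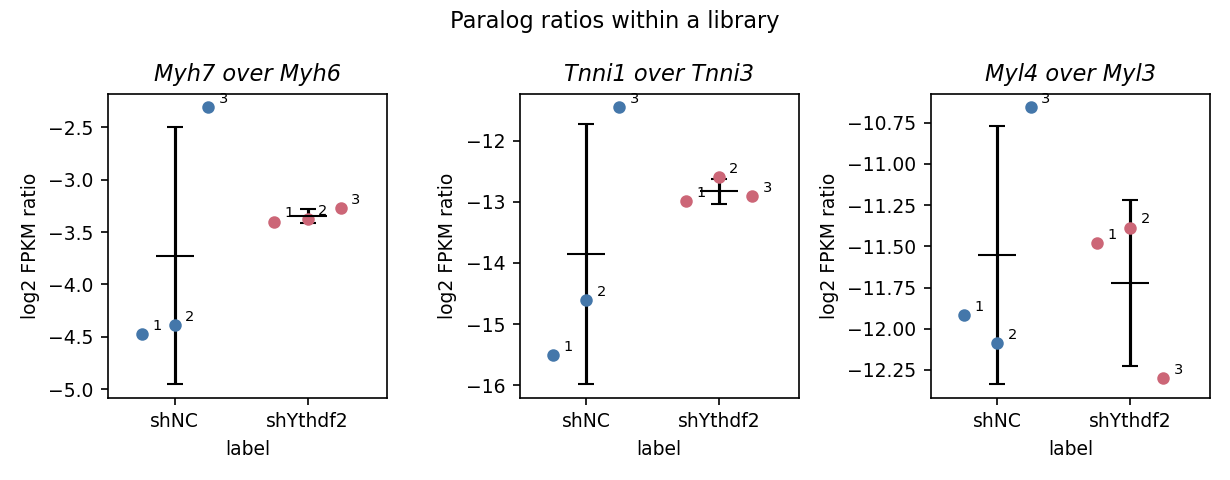
Log2 ratio of the FPKM of paired genes within each library, by label; points are libraries numbered by replicate, bars the mean with its SD (n = 3), and the axes do not start at 0. In all 3 ratios shNC 3 is the highest control, and for Myh7 over Myh6 the shYthdf2 libraries lie between it and shNC 1 and 2.

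A wider list of 46 other genes of the sarcomere and its links to the membrane had a median log2 fold change of -0.08, with 19 higher and 27 lower by sign and 0 past the test. At an unadjusted p under 0.05 were 3 of them, all higher (Vcl, Fhl1 and Acta1), beside 1.88% of all genes. The groups did not overlap for 5 of the 46, beside 9.51% of all genes. Acta1, Fhl1, Synm and Vcl were higher (background 4.95%) and Tnni2 was lower (background 4.55%). Vcl, vinculin, which ties actin to cell junctions and costameres, had 34.7, 29.8 and 41.8 CPM across the controls against 65.6, 71.2 and 93.7 CPM across the shYthdf2 libraries. All shYthdf2 libraries were above all controls, and the log2 fold change was 1.12 ± 0.22 (SE). Fhl1, a LIM protein that binds titin, had 50.6, 53.4 and 77.6 CPM across the controls against 159, 162 and 695 CPM across the shYthdf2 libraries. Its groups were separated too, and shYthdf2 3 was far above the rest, with a log2 fold change of 2.48 ± 0.62 (SE). Acta1, skeletal alpha-actin, which the fetal and the stressed heart also express, had 243, 228 and 213 CPM across the controls against 299.6, 284 and 700.3 CPM across the shYthdf2 libraries. The groups were separated, shYthdf2 3 was again the highest, and the log2 fold change was 0.91 ± 0.37 (SE). Reads shared by Acta1 and Actc1, which are nearly identical in their coding parts, may have been split between them. Sync, syncoilin, which binds desmin-like filaments, had 1.49, 2.35 and 3.73 CPM across the controls against 4.04, 3.19 and 10.1 CPM across the shYthdf2 libraries (log2 fold change 1.20 ± 0.54 (SE)). Tmod4, the tropomodulin of skeletal muscle, had 15.7, 22.3 and 3.29 CPM across the controls against 5.29, 6.80 and 4.95 CPM across the shYthdf2 libraries, with a log2 fold change of -1.28 ± 0.61 (SE). Without shNC 3 Tmod4 was the 1 gene of the 46 to pass, beside 0.993% of all genes, and the median of the list was 0.20.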

How the data were processed

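The 6 libraries of mouse heart RNA were grouped by the shRNA in the labels, 3 each. The deposited table gives raw counts per gene and FPKM values made by the authors, per the file headers, with genes without counts listed at 0.0001 FPKM. Per the submitters' processing notes, Bowtie 0.12.2 and mm8 were involved, in a role not stated. Not given in the sources used here are the counting tool, its strand setting, the annotation and the build behind the coordinates.

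The count test was quasi-likelihood, two-sided, in edgeR 4.0.16 (R 4.3.3; TMM, filterByExpr, Benjamini-Hochberg over 20489 genes, threshold 0.05), after the steps were tested on simulated data. The tested genes held 99.9% to 99.97% of the counts. CPM use TMM-scaled library sizes. Length is that implied by counts, FPKM and the library total, and need not be the length of the mRNA present. Alternatives were DESeq2 1.42.0, limma 3.58.1 with trend on log2(FPKM + 0.5) and log2(FPKM + 1), other scalings and filters, a length correction, a replicate block, mitochondrial genes left out, shYthdf2 1 and 2 summed, and each library left out in turn. The members, roles and lists were chosen with earlier results of these data known. Values in every library are given for members with separated groups, the 3 with the smallest p and the 2 with the highest FPKM per role, 12 members always included, and the 5 other sarcomere genes with the smallest p. Mybpc3, Nrap, Flnc, Synpo2l and Xirp1 were added after their values were seen.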

Additional observations from a re-analysis of the deposited data

How the results depend on the processing

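The 12 alternatives that keep every library let no member pass, though DESeq2 gave Flnc no p-value. In them 24 of 443 fold changes of single members reversed, in 9 members. Genes past the threshold, 2 higher and 0 lower, numbered 39 and 14 with DESeq2, 1 higher with limma at either pseudocount, and 0 higher with shYthdf2 1 and 2 summed. No label says that replicate numbers mark pairs. With each group centred on its mean, libraries of the same number had correlations of -0.013, -0.026 and -0.058. Those of different numbers had -0.037 to 0.052. Values centred within groups of 3 cannot decide whether libraries were paired. With the replicate block, with or without the length correction, 0 genes passed and 1 member had an unadjusted p under 0.05. That count, 4 as reported, was 2 with the length correction and with limma at either pseudocount, and 1 with shYthdf2 1 and 2 summed. The share of all genes was 3.65% as reported and was not counted under these alternatives. The correlation with length, 0.39, was 0.33 with the length correction and 0.46 with limma at either pseudocount.

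Leaving out 1 library in turn gave 0 to 137 genes higher and 0 to 74 lower, 0 to 4 members past the threshold, 1 to 19 at an unadjusted p under 0.05 and 4 to 26 with separated groups. In each case the highest count came without shNC 3. The unadjusted count was 2 without shNC 1 and 1 without any of the other 4. Without shNC 3 the shares of all genes past the threshold, at an unadjusted p under 0.05 and separated were 0.993%, 19.6% and 39.6%. With all 6 libraries they were 0.00976%, 3.65% and 9.51%. Without shYthdf2 3, 19.5% of all genes were separated. Other such shares with a library left out were not counted, so the low member counts cannot be set against a background. The correlation with length ran from 0.23 to 0.47, and the Myl4 to Myl3 difference from -0.44 to 0.28.

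Reversed log2 fold changes with every library kept were those of Actc1 (-0.044 with length correction and replicate block, -0.12 with limma at either pseudocount, -0.14 with the block, -0.0090 with the stricter filter, -0.037 with upper quartile scaling), Des (0.048 and 0.047 with limma, 0.023 with the block), Fbxo32 (0.059 with length correction and block, 0.12 and 0.10 with limma, 0.11 with the block), Flnc (1.10, 1.03, 1.02 and 1.14 in the same order), Tmod1 (-0.056 with length correction and block, -0.024 with the block) and Tnni1 (0.22 and 0.24 likewise). With shYthdf2 1 and 2 summed they were Lmod2 at 0.064, Myh7 at 0.046 and Trim63 at 0.0086. With 1 library left out, 15 members reversed at least once: Actc1 ran from -0.90 to 0.40, Cmya5 from -0.68 to 0.089, Des from -0.44 to 0.49, Fbxo32 from -0.58 to 0.34, Flnc from -0.60 to 2.29, Ldb3 from -0.31 to 0.079, Lmod2 from -0.49 to 0.11, Myh7 from -0.25 to 0.076, Myom2 from -0.55 to 0.025, Mypn from -0.023 to 0.28, Nrap from -0.47 to 0.39, Smpx from -0.46 to 0.11, Tmod1 from -0.46 to 0.33, Tnni1 from -0.60 to 0.81 and Trim63 from -0.31 to 0.097. The cause was not tested. Depth limits Myl7 and Tnni1, which had few counts. The common biological coefficient of variation was 48.2%.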
